A study of Mus musculus with 2 samples.

Results

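The IL-17 program comprises 9 genes, Il17a, Il17f, Il22, Il23r, Il1r1, Ccr6, Il17re, Cd163l1 and Blk, out of 28692 genes in the matrices. They were chosen by symbol and all 9 were found. The study profiled CD45+ leukocytes resident in the adipose tissue of adult wild-type C57BL/6 mice by 10x Genomics single-cell RNA sequencing. The mice received control chow or a ketogenic diet, which raises circulating ketone bodies, for 1 week, and cells inside blood vessels were marked by intravenous labelling and left out. Each diet is 1 library, and the number of mice behind a library is not given in the sources used here. No value below therefore has a replicate check, and no test between diets was made. The ranges in parentheses are 95% exact intervals (Poisson for a level, Clopper-Pearson for a share, conditional binomial for a ratio of levels) and cover counting error only.

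IL-17A, IL-17F and IL-22 are cytokines of type 17 lymphocytes, a class that includes Th17 cells, group 3 innate lymphoid cells and a subset of gamma-delta T cells, whose T cell receptor pairs a gamma with a delta chain. IL-23 and IL-1beta, made largely by myeloid cells, drive these lymphocytes through IL-23R and IL-1R1. In adipose tissue, gamma-delta T cells are a known source of IL-17A.

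The chow library held 4545 cells and the ketogenic library 5614, with 4458 and 5559 of them in 1 of the 13 clusters of the authors' deposited table. Median depth was 3469 and 3461.5 unique molecular identifiers (UMIs, each 1 captured transcript molecule) per cell. The libraries shared 41 cell barcodes, 1 of them with a cell in cluster 11. Cluster 11 is the gamma-delta T-like cluster, with 59 chow and 170 ketogenic cells. All 9 listed gamma-delta T markers, of which the member Il23r is 1, were raised in it, and Trdc, Tcrg-C1 and Tcrg-C2 were among its 10 leading genes. Cd163l1 and Il17re are among those 10 as well. The clusters were made from the expression of all such genes, so the place of the members among them is a description and not a test.

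Most members had their highest level in cluster 11 in both libraries, but much of the RNA of some members lay elsewhere. Levels are the cluster's summed UMIs scaled to counts per 1e6 UMIs (CPM) and are compared between clusters, not between genes. In the ketogenic library all 9 members had their highest level there, and in the chow library 8 of 9 did, Ccr6 being the exception. For Il17f the chow order rests on 2 UMIs in cluster 11, and its level there was 1.67 times (0.185 to 7.18) that of cluster 0, so the 2 clusters were not separated. Among 12108 genes that reached 30 UMIs in all, cluster 11 was the highest cluster for 19.2% in chow, 16.5% in the ketogenic library and 7.38% in both. The cluster was 1.32% of the clustered chow cells and 3.06% of the ketogenic cells. In chow, cluster 11 held between 63.9% and 73.3% of the UMIs of Il17a, Il23r, Il17re and Cd163l1, but 47.1% for Blk, 32.5% for Il22, 26.7% for Il1r1, 10.0% for Il17f and 3.57% for Ccr6. For Il17f (75.0%), Ccr6 (57.1%) and Il22 (41.0%) cluster 0 held more of the chow UMIs than cluster 11. In the ketogenic library, cluster 11 held between 65.9% and 84.6% of the UMIs of 6 members, but 48.3% for Il22, with 40.8% in cluster 0, 47.0% for Blk and 40.3% for Ccr6. At least 1 member was detected in 49 of its 59 chow cells and in 139 of its 170 ketogenic cells. At least 2 members were detected in 34 and 90 cells of cluster 11, against 13 of 4399 chow and 21 of 5389 ketogenic cells in all other clusters.

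**Figure D1:**
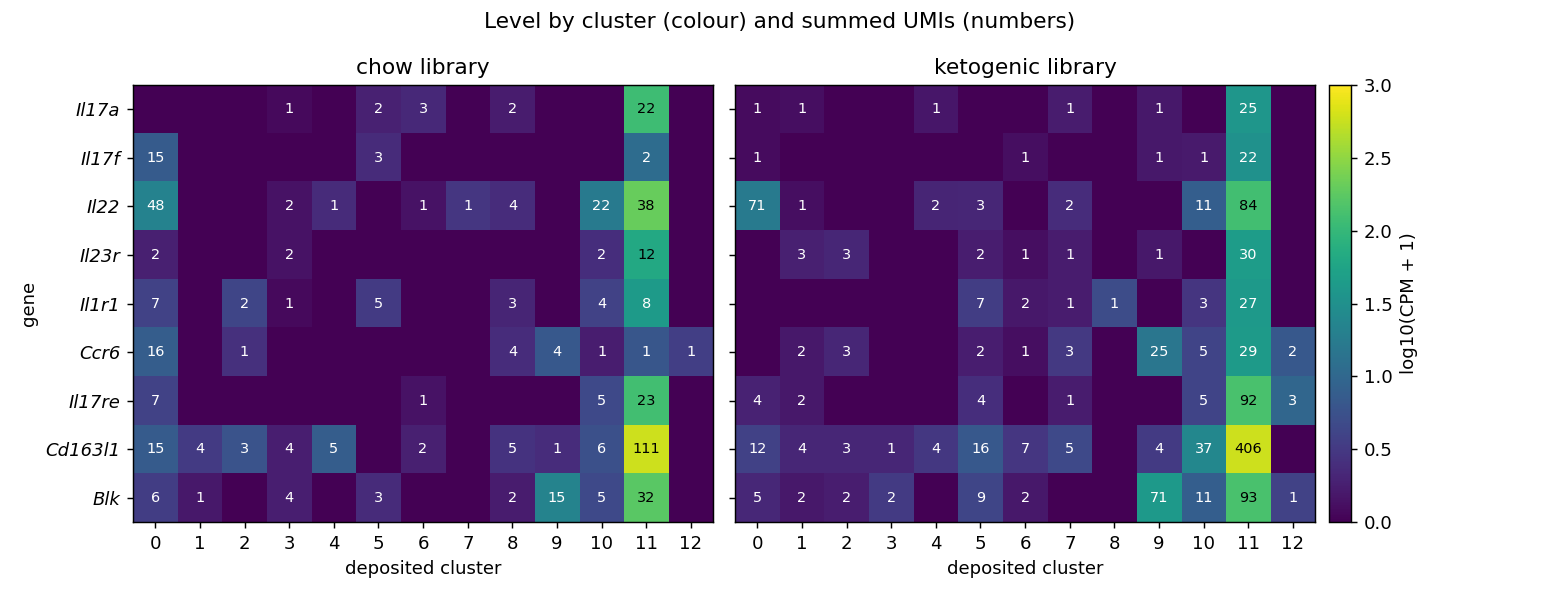
Level of each member in the 13 clusters of the chow (left) and ketogenic (right) library, coloured by log10(CPM + 1), with the summed UMIs printed in each field. Column 11 is the brightest for 8 of 9 genes in chow and for 9 of 9 in the ketogenic library, and Il17f and Ccr6 have UMIs in column 0 mostly in the chow library.

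Among the ligands, Il17a, which encodes the founding cytokine of the family, had 22 of its 30 chow UMIs and 25 of its 30 ketogenic UMIs in cluster 11. Its level there was 116 CPM (72.6 to 175) in chow and 36.6 CPM (23.7 to 54.1) in the ketogenic library. The next cluster stood at 1.23 CPM in chow and 0.707 CPM in the ketogenic library, so that no other cluster came near it. The chow UMIs of cluster 11 lay in 8 cells, and a single cell held 11 of them. The ketogenic UMIs lay in 11 cells, with at most 5 in a cell. In the dendritic cell (cDC1-like) cluster 6, used as a class that should lack these transcripts, 3 of 307 chow and 0 of 355 ketogenic cells had an Il17a UMI at median depths of 7906 and 9922 UMIs, against 3052 and 3703 in cluster 11.

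Il17f, whose product is close to IL-17A and can pair with it, was not confined to the cells with Il17a. It had 20 chow UMIs, of which 15 lay in cluster 0, the cluster with markers of group 2 innate lymphoid cells (ILC2-like), and 2 in cluster 11. Of its 26 ketogenic UMIs, 22 lay in cluster 11 and 1 in cluster 0. Few cells carried it, 7 in chow and 9 in the ketogenic library. Of these, 4 chow cells were in cluster 0 and 5 ketogenic cells were in cluster 11, 1 of the latter with 12 UMIs. No chow cell and 1 ketogenic cell of cluster 11 had both Il17a and Il17f.

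Il22, which encodes a cytokine acting on epithelial and other non-haematopoietic cells, had most of its UMIs in very few cells. Its level in cluster 11 was 200.1 CPM (142 to 275) in chow and 123 CPM (98.2 to 152) in the ketogenic library. The 38 chow UMIs came from 2 cells and the 84 ketogenic UMIs from 4 cells, so these intervals, which treat UMIs as independent, are too narrow. Over all clusters, 5 chow cells with at least 10 UMIs each held 88.0% of the chow UMIs, and 5 such cells held 94.3% of the ketogenic UMIs. Of these cells, 2 in chow and 3 in the ketogenic library were in cluster 11, 2 and 1 were in cluster 0, and 1 and 1 were in cluster 10, the cycling-like cluster. The cell with the most Il22, with 70 UMIs, was a ketogenic cell of cluster 0.

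**Figure D2:**
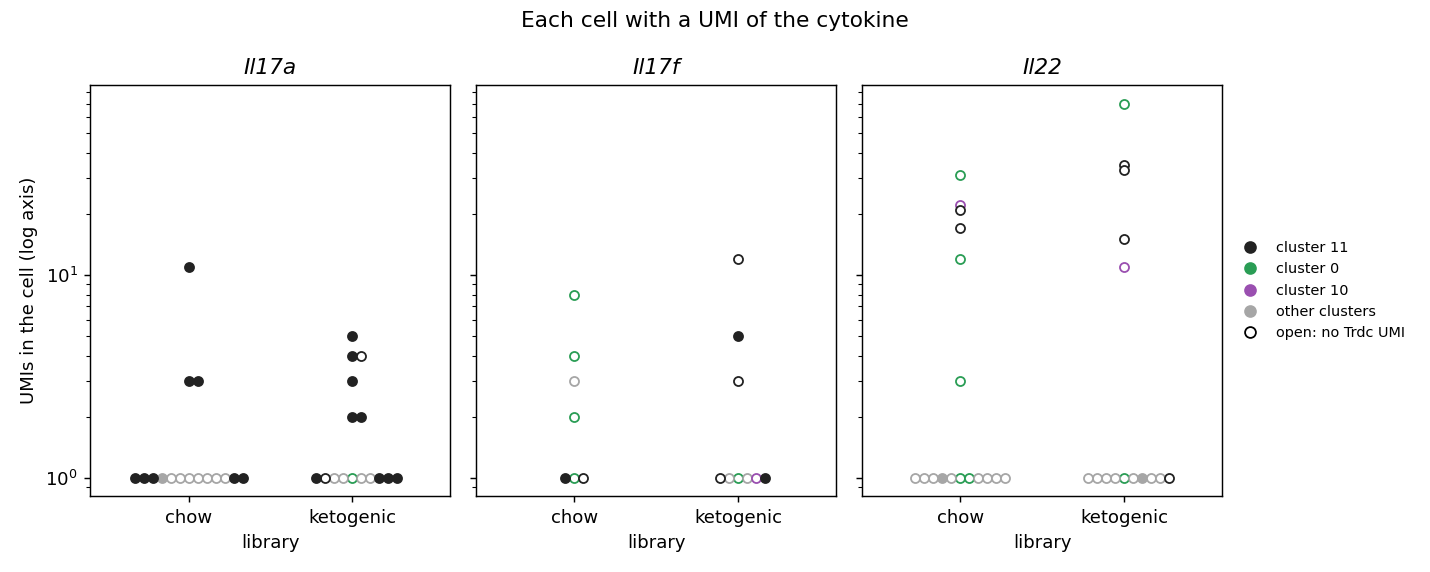
UMIs per cell (log axis) for every clustered cell with a UMI of Il17a, Il17f or Il22 in each library, coloured by cluster and open where the cell had no Trdc UMI. Il17a is carried mainly by filled points of cluster 11, and the highest Il22 points, up to 70 UMIs, are all open and fall in clusters 11, 0 and 10.

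The receptors for the inducing cytokines were found in cluster 11 with at most 2 UMIs in a cell. Il23r, the specific chain of the IL-23 receptor, stood at 63.2 CPM (32.7 to 110) in chow and 44.0 CPM (29.7 to 62.8) in the ketogenic library, from 11 and 28 cells. Il1r1, the signalling receptor for IL-1, stood at 42.1 CPM (18.2 to 83.0) and 39.6 CPM (26.1 to 57.6), from 8 and 24 cells. Other clusters held 73.3% of the chow and 34.1% of the ketogenic UMIs of Il1r1, against 33.3% and 26.8% of those of Il23r. The intervals of these shares overlapped between the 2 genes in both libraries. Il17re, the receptor subunit for the family member IL-17C, stood at 121 CPM (76.8 to 182) and 135 CPM (109 to 165), from 19 and 65 cells, and its next cluster was at 3.63 and 8.67 CPM.

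Ccr6, the receptor for the chemokine CCL20 on type 17 lymphocytes and B cells, was the member that departed most from this order. In chow its levels in cluster 0 (6.73 CPM), cluster 9 (5.67 CPM) and cluster 11 (5.27 CPM, from 1 UMI) overlapped in their intervals. In the ketogenic library cluster 11 led with 42.5 CPM (28.5 to 61.0), ahead of cluster 9 with 14.2 CPM (9.21 to 21.0). In cluster 9 markers of B cells and of plasma cells were raised.

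Cd163l1 and Blk completed the set. Cd163l1, a scavenger receptor gene (Scart1) known from IL-17-producing gamma-delta T cells, had 111 chow and 406 ketogenic UMIs in cluster 11, that is 585 CPM (481 to 704) and 595 CPM (539 to 656). It was detected in 34 of 59 chow cells (57.6%, 44.1 to 70.4) and in 77 of 170 ketogenic cells (45.3%, 37.7 to 53.1), against 2 and 7 cells of the cDC1-like cluster. Blk, a Src family kinase of B cells that gamma-delta T cells also use, stood at 169 CPM (115 to 238) and 136 CPM (110.0 to 167). Its next cluster was cluster 9, at 21.2 CPM (11.9 to 35.0) in chow and 40.4 CPM (31.6 to 51.0) in the ketogenic library.

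The members lie on 6 chromosomes, and Il17a and Il17f are neighbours. In the GRCm38 annotation (GENCODE M21) Il17a is the protein-coding gene ENSMUSG00000025929 at chr1:20730905-20734496 on the plus strand, and Il17f is ENSMUSG00000041872 at chr1:20777146-20790617 on the minus strand, 42.6 kb away. Il23r lies at chr6:67422932-67491855 (minus strand) and Ccr6 at chr17:8236043-8257141 (plus strand).

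Cluster 11 itself was divided with respect to the program. Trdc, the constant gene of the T cell receptor delta chain, had a UMI in 45 of the 59 chow cells and in 96 of the 170 ketogenic cells. A cell without a Trdc UMI may still contain the transcript, and the part of missed detection in this division was not tested. Median depth was 3498.5 UMIs without and 2947 with Trdc in chow, and 4011 and 3493 in the ketogenic library. Trac, the constant gene of the alpha chain, had a UMI in 9 of 14 chow and 53 of 74 ketogenic cells without Trdc, and in 9 of 45 and 19 of 96 cells with it.

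The UMIs of Cd163l1 and Il22 fell on opposite sides of it, those of Il22 in few cells. Every Cd163l1 UMI of the cluster, 111 of 111 in chow and 406 of 406 in the ketogenic library, was in a cell with Trdc. Against a floor of 3 UMIs over the cells without Trdc, its level was at least 13.5-fold higher in chow and at least 120.6-fold higher in the ketogenic library, and the exact intervals of the ratio, which allow for more than 3 UMIs, began at 10.8 and 97.7. Every Il22 UMI, 38 of 38 and 84 of 84, was in a cell without Trdc. These UMIs came from 2 of 14 chow cells and 4 of 74 ketogenic cells without Trdc, against 0 of 45 and 0 of 96 cells with it, so that the placement of Il22 rests on few cells. A count of 0 of 45 allows a share of cells with an Il22 UMI of up to 6.67% at this depth, and does not limit the share of cells that express the gene. None of the 10 Il22 cells with at least 10 UMIs had a Trdc or a Cd163l1 UMI, in any cluster. Ccr6 was found in 3 of the 5 such cells of each library, and Kit, a growth factor receptor of progenitors and innate lymphoid cells, in 5 of 5 chow and 3 of 5 ketogenic cells. Tcrg-C1, a gamma chain constant gene and a leading gene of cluster 11, was also found in 5 of 5 chow and 3 of 5 ketogenic cells, with up to 25 UMIs, and Cd3e, a chain of the T cell receptor complex, in 1 of 5 and 2 of 5.

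Il17a and Blk lay mainly with Trdc and Ccr6 mainly without it. For Il17a, 22 of 22 chow and 20 of 25 ketogenic UMIs were in cells with Trdc, and 7 of the 8 chow and 8 of the 11 ketogenic Il17a cells also had Cd163l1. Blk had 28 of 32 and 79 of 93 UMIs in cells with Trdc, a ratio of levels of 2.56 (0.894 to 10.0) in chow and 5.03 (2.83 to 9.62) in the ketogenic library. Ccr6 had 27 of its 29 ketogenic UMIs in cells without Trdc, a ratio of 15.2 (3.81 to 131) in their favour, and its 1 chow UMI was in such a cell. Il17f also leaned that way in the ketogenic library, with 16 of 22 UMIs and a ratio of 2.99 (1.11 to 9.34), 12 of the 16 in 1 cell. For Il23r, Il1r1 and Il17re the intervals of the ratio included 1 in both libraries. Il23r and Il1r1 had 9 of 12 and 6 of 8 chow UMIs in cells with Trdc, and Il17re had 14 of 23.

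**Figure D3:**
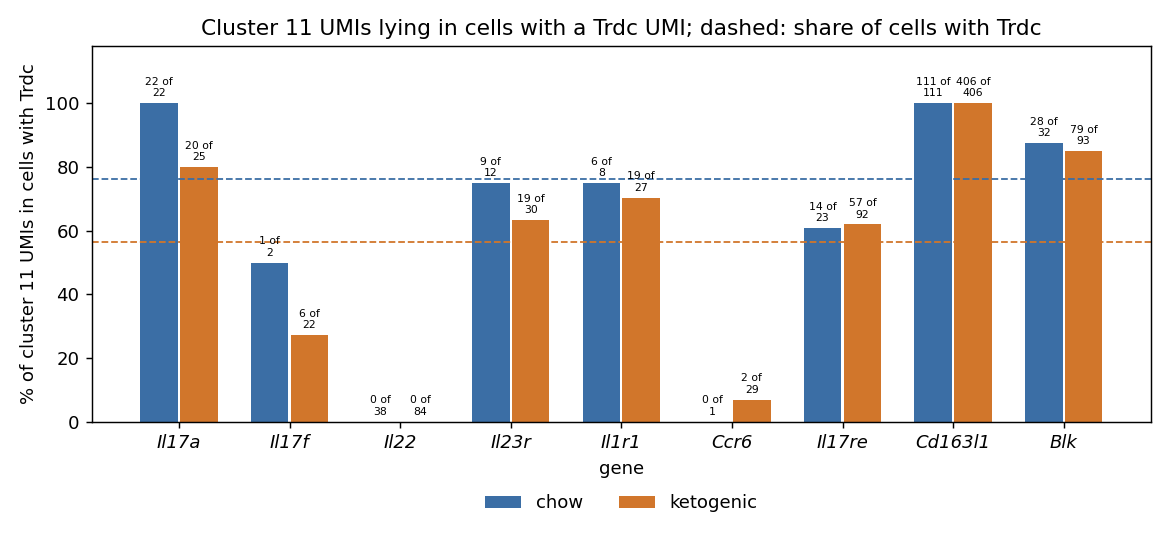
Percentage of each member's cluster 11 UMIs that lay in cells with a Trdc UMI, per library, with the UMIs printed above each bar and dashed lines at the percentage of cells with Trdc. Cd163l1 reaches 100% and Il22 stays at 0% in both libraries.

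Between diets, the log2 ratios of the members within cluster 11 ran from -1.66 for Il17a to 2.45 for Ccr6. Log2 ratios are ketogenic over chow with 0.5 UMI added to each sum. By the fixed size of 2-fold, 2 of the 9 members were higher in the ketogenic library, where 10.1% of 6785 genes with at least 10 UMIs in the cluster were, and 1 was lower, where 6.68% were. The median log2 ratio of the members was -0.15, and that of all 6785 genes was 0.05. Cd163l1, the best measured, differed by 0.02 on the log2 scale, a ratio of 1.02 (0.823 to 1.27). Among the cells with Trdc alone it was at 798 and 1126 CPM, a log2 ratio of 0.49 whose ratio had an interval of 1.14 to 1.76. Il17re had a log2 ratio of 0.13, Il1r1 of -0.15, Blk of -0.32 and Il23r of -0.56, all with intervals of the ratio that included 1.

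Il17a was the member that was more than 2-fold lower, with a log2 ratio of -1.66 and a ratio of 0.316 (0.171 to 0.588). Its UMIs were found in 8 of 59 chow cells (13.6%, 6.04 to 25.0) and in 11 of 170 ketogenic cells (6.47%, 3.27 to 11.3). With every cell thinned to 1000 UMIs, which left out no cell, the shares were 6.78% and 2.94%, with overlapping intervals. Without the cell with the most Il17a in each library, the log2 ratio was -1.04. Among the cells with Trdc alone Il17a was at 158 and 55.4 CPM, a log2 ratio of -1.51. The cells without Trdc held 0 chow and 5 ketogenic Il17a UMIs, with a ratio interval from 0.145 upwards that included 1. Over all clustered cells the 2 libraries each held 30 Il17a UMIs in 16 cells. Il17a-positive cells of cluster 11 were 0.179% of the clustered cells in chow and 0.198% in the ketogenic library, while Cd163l1-positive cells of cluster 11 were 0.763% and 1.39%. The ratio of these shares was 1.10 (0.404 to 3.16) for Il17a and 1.82 (1.20 to 2.81) for Cd163l1.

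Il22 had a log2 ratio of -0.71 in cluster 11 and a ratio of 0.615 (0.415 to 0.928), from the 2 and 4 cells described above. Among the cells without Trdc alone, which were 14 of 59 and 74 of 170 cells and held all these UMIs, it was at 748 and 261 CPM, a log2 ratio of -1.53 (interval of the ratio 0.235 to 0.526), past 2-fold lower. Over clusters 0 and 11 together the log2 ratio was -0.13, and over all clusters it was 0.29.

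By the ratio of summed UMIs, Ccr6 and Il17f were the members more than 2-fold higher in the ketogenic cells of cluster 11, and both were lower in cluster 0. Ccr6 had 1 chow and 29 ketogenic UMIs in cluster 11, a log2 ratio of 2.45 and a ratio of 8.07 (1.34 to 329.6). Among the cells without Trdc, with 1 and 27 of these UMIs, the log2 ratio was 1.53 and the interval of the ratio, 0.703 to 174, included 1, and the cells with Trdc held 0 and 2 UMIs. In cluster 0 Ccr6 had 16 chow UMIs in 8 cells and 0 ketogenic UMIs. Taking 3 UMIs as the floor, this is at least 9.78-fold lower. The exact interval of the ratio, which allows for more than 3 UMIs, ended at 0.141, or 7.07-fold lower. Il17f had 2 and 22 UMIs in cluster 11, a log2 ratio of 1.32 and a ratio of 3.06 (0.753 to 26.9). With 0.5 UMI added, Il17f was under 2-fold without the cell with the most Il17f in each library (0.96 on the log2 scale). It was also under 2-fold with the mean of each cell's CPM (0.45) and without the highest doublet scores of Scrublet (0.28). The same held in cells with Trdc (0.74) and in cells without Trdc (0.80). Il17f had only 1 chow UMI in each of these groups. Before the 0.5 UMI was added, its levels were more than 2-fold apart in both, at 7.19 and 16.6 CPM with Trdc and 19.7 and 49.8 CPM without. In cluster 0 it had 15 and 1 UMIs, a ratio of 0.0364 (0.000864 to 0.236). In cluster 0, 5 of the 6 members with at least 10 UMIs were at least 2-fold lower, namely Il17f, Ccr6, Il17re with 7 and 4 UMIs, Cd163l1 with 15 and 12 and Blk with 6 and 5, where 4.86% of 10373 genes were, and 0 were higher, where 3.63% were. None of these 5 members reached 50 UMIs. Of the 7338 genes that did, 1.76% were lower, so the share among the genes with 10 or more but fewer than 50 UMIs is above 4.86%. The intervals of Il17re (0.0669 to 1.23) and Blk (0.110 to 1.79) included 1. A single chow cell held 9 of the 15 Cd163l1 UMIs, and without the cell with the most UMIs of the gene in each library, an alternative chosen after seeing the data, 6 and 8 UMIs were left and the log2 ratio was -0.49. Under this alternative 4 of the 6 members were lower, 1 of them Il22, whose ketogenic UMIs in cluster 0 were nearly all in the removed cell. The share of all genes under this alternative was not computed, so the count has no background. Il17f was left with 7 and 0 UMIs, Il17re with 6 and 3 and Blk with 4 and 4, below the minimum of 10 UMIs. Il1r1, with 7 chow and 0 ketogenic UMIs, was below that minimum before any cell was removed.

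With clusters 0 and 11 pooled, the differences of Ccr6 and Il17f between the libraries were no longer seen. Ccr6 had 17 and 29 UMIs, a ratio of 0.869 (0.462 to 1.69), and Il17f 17 and 23 UMIs, a ratio of 0.689 (0.352 to 1.37). None of the 9 members was past 2-fold in either direction, where 3.89% of 10681 genes were higher and 4.1% lower. In a clustering made here without the 9 members, the cluster highest in Il17a, Il17f and Il23r took in all 59 chow cells of cluster 11 and 15 chow cells of cluster 0, but 167 and 2 such ketogenic cells. In that cluster Ccr6 stood at 60.2 CPM in chow and 48.0 CPM in the ketogenic library, and Il17f at 64.0 and 32.4 CPM. Il17a remained lower there, at 82.8 and 35.3 CPM.

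**Figure D4:**
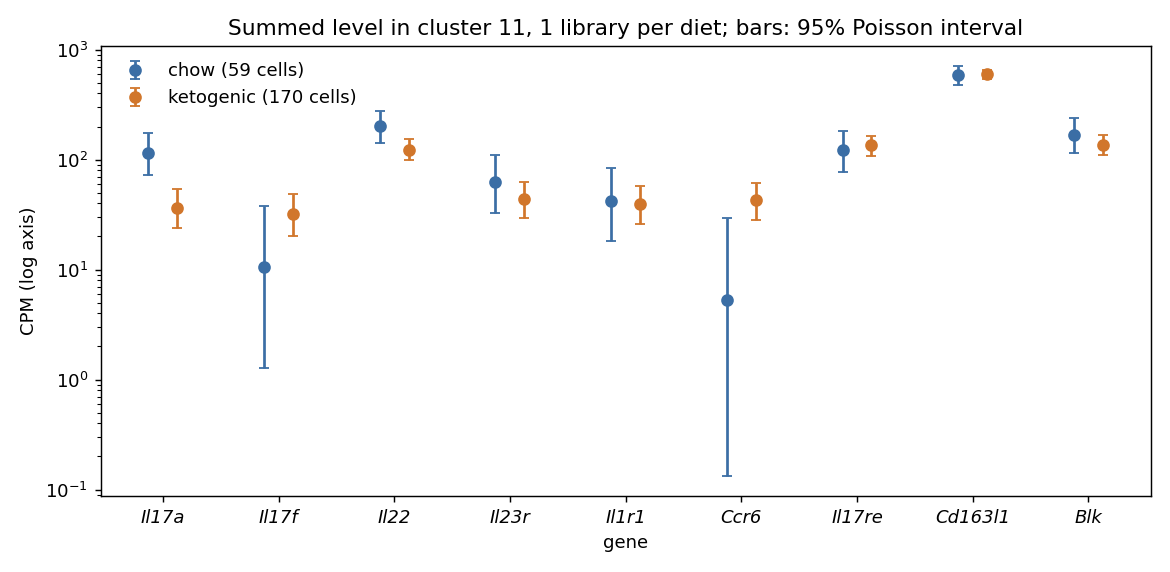
Level of each member in cluster 11 (CPM, log axis) in the chow (59 cells) and ketogenic (170 cells) library, with 95% Poisson intervals. Il17a at 116 and 36.6 CPM is the only gene whose intervals are apart with chow above, and Cd163l1 is at 585 and 595 CPM.

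Pooled over all clusters, where fewer cells of a type and less RNA per cell cannot be told apart, 4 of the 9 members were at least 2-fold higher in the ketogenic library and 0 were lower, where 8.12% of 13736 genes were higher and 7.64% lower. They were Cd163l1 with a log2 ratio of 1.40, Il17re with 1.33, Blk with 1.26 and Ccr6 with 1.07. Cluster 11 made up 1.32% and 3.06% of the cells, and outside it the log2 ratios were 0.79 for Cd163l1, 0.28 for Il17re and 0.41 for Ccr6. Il17a had a log2 ratio of -0.28 and Il17f of 0.09 on the same scale. Outside cluster 11, Blk remained higher, with 36 and 105 UMIs and a log2 ratio of 1.28, and 15 and 71 of those UMIs were in cluster 9. In that cluster 1 of the 2 members with at least 10 UMIs, Ccr6 with 4 and 25 UMIs, was at least 2-fold higher and 0 were lower, where 23.1% of 8341 genes were higher and 3.13% lower.

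**Figure D5:**
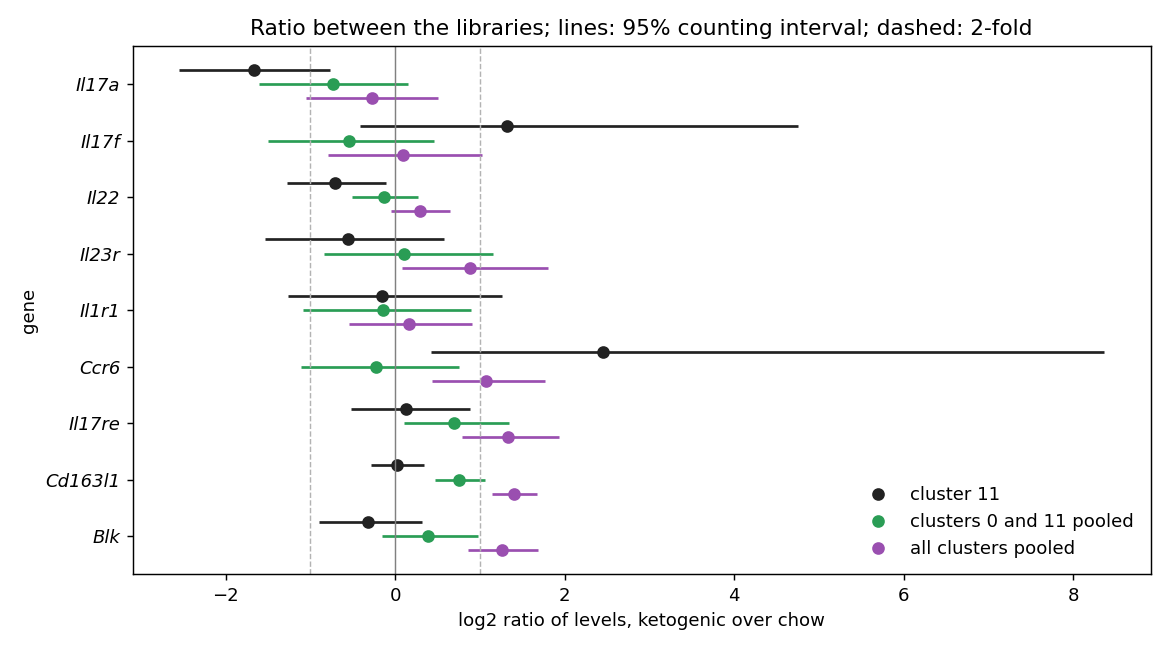
Log2 ratio of each member's level, ketogenic over chow, in cluster 11, in clusters 0 and 11 pooled and in all clusters pooled, with 95% counting intervals as lines and dashed lines at 2-fold. Ccr6 moves from 2.45 in cluster 11 to -0.22 when cluster 0 is added, and Il17a from -1.66 to -0.74.

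Smaller amounts of the program were seen in other clusters. In the cycling-like cluster 10, Cd163l1 had 6 chow UMIs in 3 cells and 37 ketogenic UMIs in 4 cells, and Il22 had 22 and 11 UMIs, in 1 cell of each library. Of the 4 members with at least 10 UMIs there, Cd163l1 was at least 2-fold higher and Il22 at least 2-fold lower, where 8.48% of 9598 genes were higher and 6.49% lower. Cells of that cluster with at least 2 members numbered 4 of 142 in chow and 5 of 154 in the ketogenic library, and 3 and 4 of them had both Trdc and Mki67, a proliferation gene. In the cDC2-like cluster 5, Cd163l1 had 0 chow UMIs and 16 ketogenic UMIs in 8 cells.

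Among the other genes of the pathway, 44 of the 67 listed ones had at least 10 UMIs in cluster 11. Of these, 1 was at least 2-fold higher and 3 were at least 2-fold lower in the ketogenic library, where 10.1% and 6.68% of all 6785 genes were. The share that was lower is close to that of all genes, and the smaller lists within the 44 are read against the same shares. The median log2 ratio of the 44 was -0.11, against 0.05 for all genes. Of 10 transcription factors of the producing cells, 0 were higher (10.1% of all genes) and 1 was lower (6.68%), namely Sox13, a factor of the gamma-delta lineage, with 9 and 11 UMIs and a log2 ratio of -1.57. All these Sox13 UMIs were in cells with Trdc. Maf, required by IL-17-producing gamma-delta T cells, stood at 485 and 356 CPM, and Zbtb16, which encodes the innate-like T cell factor PLZF, at 10.5 and 23.5 CPM from 2 and 16 UMIs. Of 22 surface and effector genes, 0 were higher (10.1% of all genes) and 1 was lower (6.68%), Tcrg-V6, a gamma chain variable gene, from 6 and 5 UMIs. Il7r, the receptor for the survival factor IL-7, stood at 542 and 412 CPM.

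Of the 14 listed inducing cytokines and antagonists, 3 had at least 10 UMIs in cluster 11, of which Ccl20 was at least 2-fold higher (10.1% of all genes) and Il1b at least 2-fold lower (6.68%). The other, Tgfb1, a regulatory cytokine, stood at 200.1 and 251 CPM in cluster 11, a log2 ratio of 0.31, and its highest levels were 289 CPM in cluster 0 in chow and 492 CPM in cluster 3 in the ketogenic library. Il1b stood at 2583 and 3134 CPM in the macrophage-like cluster 3 and at 2430 and 2240 CPM in the cDC2-like cluster 5. In cluster 11 it was at 169 and 44.0 CPM, a log2 ratio of -1.94, and in the NK-like cluster 1 at 152 and 48.1 CPM, while cluster 3 held 859 chow and 145 ketogenic cells. The part of Il1b RNA from other cells in the value of cluster 11 was not tested. Il23a, the specific subunit of IL-23, had 16 chow UMIs and 0 ketogenic UMIs in cluster 3, 0 and 6 in cluster 5 and 0 and 5 in cluster 0, with 19 and 14 over all clusters and 0 in cluster 11. Ccl20, the ligand of CCR6, had 0 chow UMIs and 20 ketogenic UMIs in cluster 11, 19 of them in 1 cell. Among 9 receptor and signalling genes 0 were higher (10.1% of all genes) and 0 lower (6.68%), a number of genes too small to tell from those shares. Il17ra, the shared receptor subunit for IL-17A and IL-17F, was found in all 13 clusters and was at 31.6 and 33.7 CPM in cluster 11. Its partner Il17rc had 1 chow and 9 ketogenic UMIs there and 11 chow UMIs in cluster 8.

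Genes with the pattern most like each member were taken by Pearson's r of log2(CPM + 20) over the 26 sums of 13 clusters and 2 libraries, among 10361 genes with at least 100 UMIs. These sums share their libraries, and their depths differ. With 20 CPM added, r rests mostly on the few sums where a member is high. For Il22 this is mainly cluster 11, where its UMIs lay in 2 chow and 4 ketogenic cells. Il17re and Cd163l1 were both closest to Kcnk1, a potassium channel gene (r = 0.992 each), and Ly6g5b was also among the 3 most alike for each. Il17re was the second most alike for Cd163l1 (r = 0.981). Blk was closest to Kcnk1 (r = 0.906), Cd163l1 and Il17re. Il22 was closest to Flrt2 (r = 0.968), Coro2b and Ffar2, a receptor for short-chain fatty acids, none of them a member. Ccr6 had the weakest likeness, with Blk (r = 0.766) first and Alg2 also among its 3. The other 4 members had fewer than 100 UMIs.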

How the data were processed

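As deposited, each library is a matrix of whole-number UMI counts with no normalization by the authors. The authors' deposited table gives each cell a cluster number, at a resolution of 0.5, and 2 t-SNE scores, which were not used. Cell Ranger, Seurat and the mm10 build are named in the submitters' processing notes, with no versions or roles. Cells without a cluster all had more than 5% mitochondrial UMIs and entered no comparison. Counts were summed per cluster and library with Python 3.11.15 and scipy 1.17.1. Log2 ratios added 0.5 UMI, and a 2-fold size rule replaced a test, since each diet is 1 library. Genes needed at least 10 UMIs in the sum of a cluster or of pooled clusters. No minimum was set within parts of a cluster, such as cells with Trdc, or under the alternatives, apart from those that changed the minimum. A cluster was named where at least 3 markers were raised. Scrublet's own threshold marked 0.132% of chow and 0.036% of ketogenic cells and was not used, so no doublets were removed, and leaving out the 5% of cells with the highest scores was tried instead. The check clustering used scanpy 1.11.5 and Leiden on 2000 variable genes, 30 components and 15 neighbours. All 9 members are named. Of pathway genes with at least 10 UMIs in cluster 11, the 3 highest and 3 lowest ratios were named, with a short list of further genes, among them Maf, Il7r, Il1b and Il17ra. Trac, Tcrg-C1, Cd3e, Tgfb1, Kit and Mki67, all on the lists, were named once values were known. The members and all lists were chosen with earlier results of these data known. Calculations were tested on simulated data. Some genes covered by these rules are not reported here.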

Additional observations from a re-analysis of the deposited data

Results flagged for a closer look

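The ratio between the libraries pointed in opposite directions in different clusters for 2 members, each with an interval on its own side of 1. The differences between clusters were not tested. For Ccr6 the log2 ratio, ketogenic over chow, was -5.92 in cluster 0 and 2.45 in cluster 11. The first rests on 0 ketogenic UMIs and depends on the 0.5 UMI added. For Cd163l1 it was -1.18 in cluster 0, from 15 and 12 UMIs, 2.32 in cluster 10 and 4.72 in cluster 5. In cluster 0 a single chow cell held 9 of the 15 UMIs, and without the top cell of each library the value was -0.49 and its interval included 1. In cluster 5 chow had 0 UMIs, so the fitted value depends on the 0.5 UMI added. Against 3 UMIs as the floor the level was at least 4.26-fold higher, and the exact interval of the ratio, which allows for more, began at 3.08. The cells that the deposited table puts in no cluster, 87 in chow and 55 in the ketogenic library, also held members. Cd163l1 had 18 UMIs in 4 such chow cells, 11 of them in 1 cell, and Ccr6 had 6 UMIs in 5 such ketogenic cells. The corresponding counts in the other library were 2 for Cd163l1 and 1 for Ccr6.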

How the results depend on the processing

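Without the highest Scrublet scores, members were highest in the leading cluster in 8 of 9 cases in chow and 9 of 9 in the ketogenic library. The counts were the same with 10% of UMIs subtracted as free RNA. That subtraction takes nearly the same level from every cluster of a library, so it could hardly change their order and is no check. The leading cluster of the clustering made here was itself chosen by Il17a, Il17f and Il23r, so its count is no check either. Of the log2 ratios in cluster 11, 88 of 106 alternative values stayed within the counting interval, 14 left it, and 4 others, of Il17a, Il22 and Ccr6, had the opposite sign to a value whose own interval did not include 0. Pooling clusters 0 and 11, chosen after seeing the data, gave Il17a -0.74, Il17f -0.55, Ccr6 -0.22, Cd163l1 0.75 and Blk 0.38, and pooling all clusters gave Il17a -0.28, Il22 0.29, Il23r 0.89, Il17re 1.33, Cd163l1 1.40 and Blk 1.26. The leading cluster of the clustering made here gave Il17f -0.99 and Ccr6 -0.35. Cells with a Trdc UMI gave Cd163l1 0.49 and, with 0 UMIs in both libraries, no value for Il22. Cells without a Trdc UMI, an alternative chosen after seeing the data, gave Il17a 0.80 from 0 chow UMIs, Il22 -1.53, Il17re -0.76 and Blk -0.97. The 2 members at least 2-fold higher became 1 with the mean over cells of each cell's CPM, 1 without the cell with the most UMIs, 1 without the highest Scrublet scores, 0 in cells with Trdc, 1 in cells without Trdc, 0 with clusters 0 and 11 pooled, 4 with all clusters pooled, 0 with the clustering made here and 0 at a minimum of 50 UMIs. The 1 lower member became 0 with clusters 0 and 11 pooled, 0 with all clusters pooled and 0 at 50 UMIs. At 50 UMIs 3.22% of genes were higher and 1.19% lower, and at 1 UMI 15.8% were lower. The causes of these changes were not tested, apart from the fewer genes that a higher minimum leaves. With each cluster weighted equally, the share of UMIs in cluster 11 left its interval for 9 of 9 members in chow and 7 of 9 in the ketogenic library. Shares of cells with a UMI at full depth left the interval of the share at 1000 UMIs for Il23r, Il17re, Cd163l1 and Blk in both libraries and for Il1r1 and Ccr6 in the ketogenic library, and not for Il17a, Il17f or Il22. The planned removal of Scrublet's own doublets was not run, since its threshold marked too few cells. No paired analysis was possible because each diet is 1 library.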
